A study of Mus musculus with 12 samples.

Results

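The sarcomeric myosin heavy chains were examined as 9 genes, Myh1, Myh2, Myh3, Myh4, Myh6, Myh7, Myh7b, Myh8 and Myh13, in the gastrocnemius (calf) muscle of mini-muscle and regular-muscle mice. Every probe set that the platform annotation assigned to exactly 1 of these genes was taken, which gave 12 of the 45037 probe sets tested and covered 8 of the 9 genes. Myh13, the heavy chain of eye muscles, had no probe set of its own, and 2 probe sets shared by Myh7 and Myh6 were not counted as members. The 12 arrays came from 12 male mice of generation 37 of a wheel-running selection experiment, at a mean age of 84 days (79 to 86 days). The mini-muscle group was 6 mice of line 3, with left and right muscles of a mouse pooled, and the regular-muscle group was 6 mice of line 8, with the muscle of 1 limb. Both lines were bred for high running, and no mouse of an unselected line was analysed here. Phenotype, line and the pooling of limbs divide the arrays in the same way and cannot be told apart, and a difference below is one between these 2 sets of 6 mice.

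A myosin heavy chain carries the motor head that splits ATP and pulls on actin, and the long tail that packs into the thick filament. Its isoform largely sets how fast a muscle fibre shortens. Adult rodent limb muscle uses the slow form Myh7 and the fast forms Myh2 (type IIa), Myh1 (type IIx) and Myh4 (type IIb), in rising order of speed, and mouse gastrocnemius is rich in type IIb fibres. Myh3 (embryonic) and Myh8 (neonatal) are used in developing and regenerating fibres, Myh6 is the fast form of the heart, and Myh7b is an ancient form that makes little protein in most adult muscle. RefSeq's gene table lists Minimsc, Minmus and MM among the other names of Myh4.

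On chromosome 11, Myh3, Myh2, Myh1, Myh4, Myh8 and Myh13 follow each other in this order, Myh6 and Myh7 are neighbours on chromosome 14, and Myh7b is on chromosome 2 (RefSeq, GRCm38.p6). The 250 bases before the annotated starts of Myh2, Myh1, Myh4 and Myh8 are shown because these 4 neighbours, of which Myh4 alone was lower in mini-muscle, share a run of letters. They are RefSeq sequences of GRCm38.p6, all on the plus strand, at chr11:67170777-67171026 for Myh2, chr11:67199852-67200101 for Myh1, chr11:67237562-67237811 for Myh4 and chr11:67276874-67277123 for Myh8. Capitals mark the one run of 10 or more letters found in all 4.
Myh2: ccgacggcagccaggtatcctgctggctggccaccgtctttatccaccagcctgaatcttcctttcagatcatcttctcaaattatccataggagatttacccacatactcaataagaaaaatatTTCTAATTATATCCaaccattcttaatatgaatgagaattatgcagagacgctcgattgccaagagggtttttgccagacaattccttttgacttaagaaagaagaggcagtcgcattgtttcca
Myh1: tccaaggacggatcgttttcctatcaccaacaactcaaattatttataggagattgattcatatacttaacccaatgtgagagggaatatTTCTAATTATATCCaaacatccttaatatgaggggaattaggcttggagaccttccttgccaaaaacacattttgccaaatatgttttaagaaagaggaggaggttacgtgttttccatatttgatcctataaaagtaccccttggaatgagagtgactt
Myh4: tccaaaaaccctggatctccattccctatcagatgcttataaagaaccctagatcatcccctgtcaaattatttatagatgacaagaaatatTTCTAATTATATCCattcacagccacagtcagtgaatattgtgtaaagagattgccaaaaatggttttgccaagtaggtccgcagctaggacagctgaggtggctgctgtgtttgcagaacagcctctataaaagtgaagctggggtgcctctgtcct
Myh8: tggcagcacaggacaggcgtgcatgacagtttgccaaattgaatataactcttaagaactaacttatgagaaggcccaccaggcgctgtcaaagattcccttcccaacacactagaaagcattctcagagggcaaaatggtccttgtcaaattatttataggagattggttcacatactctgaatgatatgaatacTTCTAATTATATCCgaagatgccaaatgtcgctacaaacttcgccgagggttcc
The shared run, TTCTAATTATATCC, begins 125, 160, 158 and 54 bases before the annotated start of Myh2, Myh1, Myh4 and Myh8. It was picked because these 4 share it, so its presence there is no finding. Searched on both strands, it occurred in 4 of 32851 promoter windows of the same length, or 0.0122%. The alignments of the Myh4 window with those of Myh1, Myh2 and Myh8 were identical at 57.6%, 52.0% and 50.5% of their columns. With Myh6, Myh7 and Myh7b, on other chromosomes, the Myh4 window gave 47.7%, 47.9% and 51.2%. The values with Myh2 and Myh8 were thus near that with Myh7b.

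Other motifs were searched on both strands of the same windows as a description. TATAAA, the core of the TATA box, was found upstream of Myh1, Myh3, Myh4 and Myh8, and in 12.4% of all windows. CANNTG, the E-box read by myogenic factors, was found for 7 of the 9 genes and in 66.2% of all windows. The MEF2 motif was found for Myh1, Myh4 and Myh8 and in 2.92% of all windows. The CArG box, the motif of serum response factor, was found among the members in the Myh4 window alone, and in 1.47% of all windows. On the printed strand of Myh4 these motifs began 213 and 31 (TATAAA), 221 and 67 (E-box), 182 (MEF2) and 104 (CArG) bases before the start, apart from each other and from the shared run.

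The values were MAS5 intensities, in which the probes of a probe set are summarised to 1 signal. They are given on the log2 scale, so that a difference of 1 is a 2-fold change. Arrays were scaled to a common trimmed mean of 800.0, and their median log2 intensity was 7.73 to 8.10 in both groups. Pearson correlations between arrays over all probe sets were 0.852 to 0.878 within groups and 0.838 to 0.869 between groups. The log2 ratio of the 3′ to the 5′ control probe set of Gapdh was -0.19 to -0.09 on mini-muscle and -0.24 to -0.15 on regular-muscle arrays, and that of actin -0.76 to 0.02 and -0.61 to 0.02. Of the 8 genes that define skeletal muscle, 1 was higher (Des, 0.85) and 1 lower (Tnnt3, -0.29, not called after quantile normalization or centring of arrays) in mini-muscle. Their mean log2 intensities of 15.73 to 17.46 were those of bright probe sets in both groups. Of all probe sets with a mean log2 intensity of 14 or more, 14.6% were higher and 22.6% lower by limma. Probe sets of 11 genes of other organs had mean log2 intensities of 5.77 to 10.45, which gauges how dim signals read here without detection calls. Oxt alone set the top of this range, at 10.50 in mini-muscle and 10.41 in regular muscle, and the median of the 11 means was 7.84. By limma 0 of the 11 differed (0 at an unadjusted p under 0.05).

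Of the 12 heavy chain probe sets, 5 were higher and 2 lower in mini-muscle at an adjusted p under 0.05 (limma, Benjamini-Hochberg over all 45037 probe sets). Over all probe sets 7.12% passed, 3.87% higher and 3.25% lower. The share depends on brightness, since 37.2% of the 739 probe sets with a mean log2 intensity of 14 or more passed, 14.6% higher and 22.6% lower. Of the 5 heavy chain probe sets that bright, 2 were higher (Myh7 and 1 of Myh1) and 1 lower (Myh4). By their brightest probe sets, Myh4 fell, Myh7, Myh3, Myh1 and Myh6 rose, and Myh2, Myh8 and Myh7b did not pass. The median difference of the 12 was 0.68, beside 0.00 over all probe sets. The 6 probe sets whose arrays did not overlap between groups were both of Myh4 (lower) and 1 each of Myh7, Myh3, Myh1 and Myh6 (higher), against 4.66% of all probe sets, 2.45% higher and 2.21% lower.

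**Figure D1:**
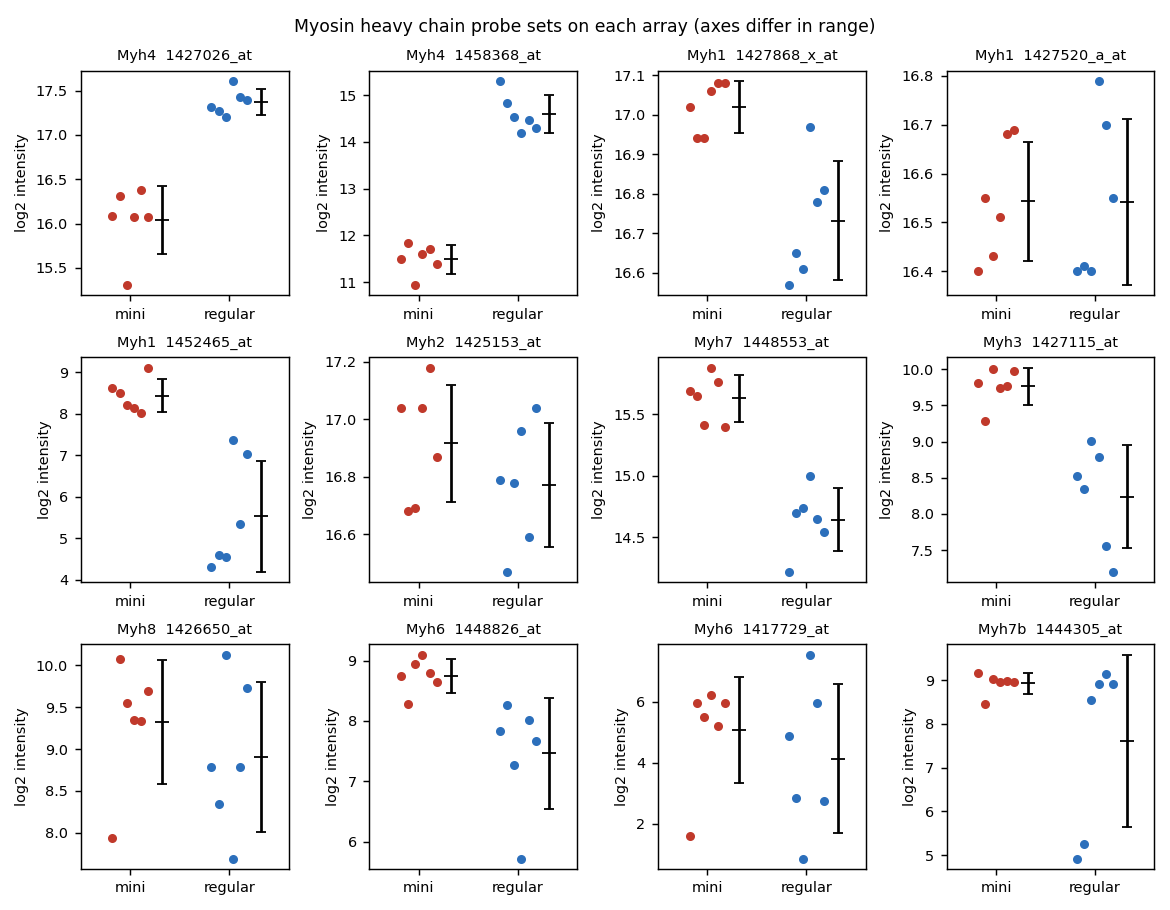
Log2 intensity (y axis, range differs by panel) of the 12 heavy chain probe sets on each of 6 mini-muscle (red) and 6 regular-muscle (blue) arrays, with the group mean and SD as a bar at the right of each group. The groups lie apart for both Myh4 probe sets (lower in mini-muscle) and for Myh7, Myh3, 1452465_at of Myh1 and 1448826_at of Myh6 (higher).

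**Figure D2:**
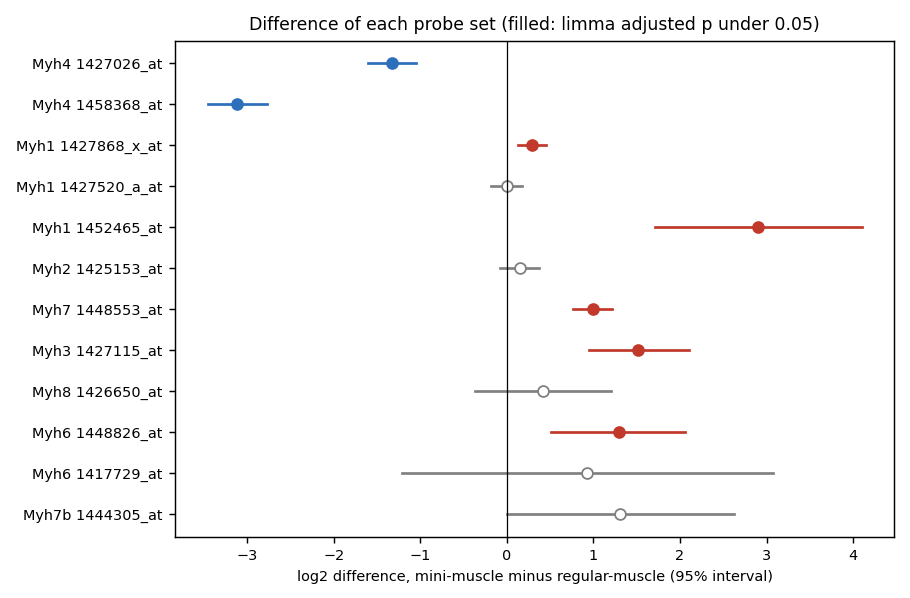
Log2 difference, mini-muscle minus regular-muscle (x axis), with its 95% interval for each heavy chain probe set; filled points passed an adjusted p under 0.05. The differences run from -3.12 for 1458368_at of Myh4 to 2.90 for 1452465_at of Myh1.

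Myh4, the heavy chain of the fastest fibres, was lower in mini-muscle at both of its probe sets. Its bright probe set 1427026_at had a lowest, median and highest log2 intensity of 15.31, 16.08 and 16.38 on mini-muscle arrays. On regular-muscle arrays these were 17.20, 17.35 and 17.61. All mini-muscle arrays thus lay below all regular-muscle arrays, and the difference was -1.33 (SE 0.13, 95% interval -1.61 to -1.05, 2.51-fold lower, limma adjusted p = 2.0e-06). In whole muscle, fewer type IIb fibres and less Myh4 RNA per fibre cannot be told apart.

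The dimmer probe set of Myh4, 1458368_at, had a lowest, median and highest value of 10.94, 11.54 and 11.83 in mini-muscle and 14.19, 14.50 and 15.31 in regular muscle. The gap between the groups was wider than the range of either. The difference was -3.12 (SE 0.16, 8.67-fold lower, adjusted p = 1.9e-09), and 11 of all probe sets had a more negative one. The difference at 1458368_at was the larger of the pair by 1.79 log2 units. On single arrays the bright minus the dimmer probe set was 4.37 to 4.70 in mini-muscle and 1.99 to 3.42 in regular muscle (exact permutation p = 0.0022, adjusted p = 0.0027 over 5 probe set pairs of 1 gene, a contrast added after the values were seen). The size of the fall of Myh4 therefore depends on the probe set, and its direction did not. On regular-muscle arrays only 1 to 9 probe sets were brighter than 1427026_at, and on mini-muscle arrays 50 to 272 were, so this probe set was read near the top of the scale. For 1458368_at, 228 to 687 were brighter in regular muscle and 3035 to 5374 in mini-muscle. The bright Myh1 and Myh2 probe sets were also read near the top. At 1427868_x_at of Myh1, 8 to 16 were brighter in mini-muscle and 27 to 38 in regular muscle. At 1427520_a_at of Myh1 these were 31 to 51 and 32 to 53, and at Myh2 8 to 29 and 24 to 45. Scanner files were not used here, and saturation was not tested for any of these probe sets.

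Myh1, the type IIx heavy chain, was read by 3 probe sets that differed from each other. At 1427868_x_at, the brightest, mini-muscle arrays had a lowest, median and highest value of 16.94, 17.04 and 17.08, and regular-muscle arrays 16.57, 16.72 and 16.97. The groups overlapped through regular-muscle replicate 4, and the difference of 0.29 (SE 0.08, 95% interval 0.13 to 0.45, 1.22-fold) passed (adjusted p = 0.024). The call was lost with arrays centred on their medians (adjusted p = 0.34), without the intensity trend (adjusted p = 0.24) and without any of mini-muscle replicates 4, 5 and 6 or regular-muscle replicates 1, 2 and 3 (adjusted p = 0.053 to 0.064). At 1427520_a_at the values were 16.40, 16.53 and 16.69 in mini-muscle and 16.40, 16.48 and 16.79 in regular muscle. These ranges nearly coincided, with a difference of 0.00 (95% interval -0.18 to 0.18, adjusted p = 0.997).

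The third probe set of Myh1, 1452465_at, was dim, at 8.02, 8.36 and 9.11 in mini-muscle and 4.31, 4.97 and 7.36 in regular muscle. The groups did not overlap, and the difference was 2.90 (SE 0.57, adjusted p = 0.0024). Regular-muscle replicates 4 and 6, at 7.36 and 7.04, stood above the other regular-muscle arrays. With an offset of 64 added before log2 the difference was 1.78 (adjusted p = 0.0011). Its regular-muscle mean, 5.53, lay below the lowest mean of the 11 genes of other organs, 5.77, so the size of this difference is uncertain. The platform annotation derives this probe set and 1427520_a_at from the same source sequence. It derives 1427868_x_at from the source sequence of a probe set assigned to Myhas, a long non-coding RNA gene between Myh1 and Myh4. The Myhas probe set was at 13.87 ± 0.44 (SD, n = 6) and 13.85 ± 0.14 and did not pass (difference 0.02, adjusted p = 0.97).

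Myh2, the type IIa heavy chain, had a lowest, median and highest value of 16.68, 16.95 and 17.18 in mini-muscle and 16.47, 16.79 and 17.04 in regular muscle. The ranges overlapped over most of their length. The difference was 0.15 (SE 0.11, 95% interval -0.08 to 0.37, adjusted p = 0.56), so that a rise of up to 0.37 or a fall of 0.08 lies within the interval. As for the bright probe sets of Myh1 and Myh4, this signal lay near the top of the scale, and saturation was not tested.

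Between genes of the cluster, RefSeq also places 2310065F04Rik, a long non-coding RNA gene with the other name linc-Myh, after Myh3. Its log2 intensity was 10.27 to 10.79 on mini-muscle and 11.26 to 12.09 on regular-muscle arrays, and it fell by 1.16 (SE 0.15, adjusted p = 2.6e-05). Higher, lower and level signals therefore stood next to each other in this cluster.

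**Figure D3:**
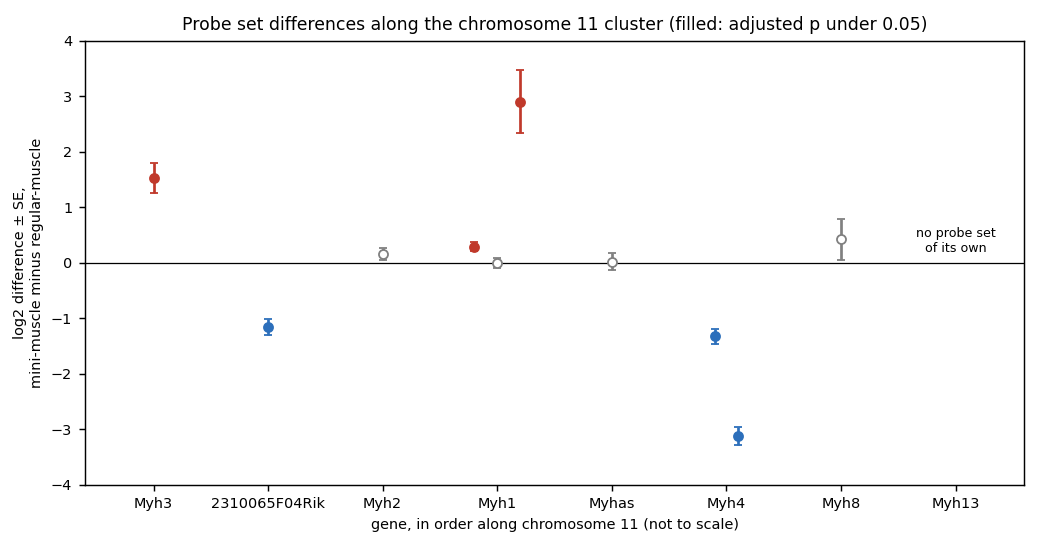
Log2 difference ± SE, mini-muscle minus regular-muscle (y axis), for the probe sets of the heavy chain genes and 2 non-coding genes in their order along chromosome 11 (x axis, not to scale). Filled points passed an adjusted p under 0.05; Myh4 and 2310065F04Rik were lower, Myh3 and 2 of the 3 Myh1 probe sets higher, and Myh2, Myhas and Myh8 near 0 or not past the threshold.

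Myh7, the slow heavy chain of type I fibres and the heart ventricle, was higher in mini-muscle. Its probe set 1448553_at had a lowest, median and highest value of 15.40, 15.67 and 15.88 in mini-muscle and 14.22, 14.68 and 15.00 in regular muscle. All mini-muscle arrays lay above all regular-muscle arrays. The difference was 0.99 (SE 0.11, 95% interval 0.76 to 1.22, 1.98-fold, adjusted p = 6.7e-06), and it stayed between 0.90 and 1.06 when any array was left out. Both probe sets that the annotation assigns to Myh7 and Myh6 together were also higher, 1448554_s_at by 1.43 (14.59 ± 0.26 against 13.16 ± 0.26) and 1448827_s_at by 1.89 (10.19 ± 0.33 against 8.31 ± 0.54). For these a share from Myh6 was not tested.

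Myh6, the alpha heavy chain of the heart, had 2 dim probe sets. At 1448826_at the values were 8.28, 8.78 and 9.10 in mini-muscle and 5.72, 7.75 and 8.27 in regular muscle. The groups met without overlap at 8.28 and 8.27, and regular-muscle replicate 4 was lowest. The difference was 1.29 (SE 0.37, adjusted p = 0.039). This call was lost with quantile normalization (adjusted p = 0.053), with arrays centred on their medians (adjusted p = 0.063), without the intensity trend (adjusted p = 0.10) and in 7 of 12 cases without 1 array, namely mini-muscle replicates 1, 3, 4, 5 and 6 and regular-muscle replicates 3 and 6 (adjusted p up to 0.095). At 1417729_at the values were scattered from 0.86 to 7.54 in both groups together and did not pass (0.93, SE 1.03, adjusted p = 0.74). Of 8 transcripts of heart muscle, 1 was higher (beside 5.84% of all genes), Tnnt2 (1.43), the troponin T of heart and immature skeletal muscle. The atrial genes Nppa (6.29 ± 1.19 and 6.66 ± 0.96) and Myl7 (5.98 ± 1.72 and 6.65 ± 1.41) were as dim as the genes of other organs and did not pass.

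Myh7b was read by 1 dim probe set, 1444305_at, at 8.45, 8.98 and 9.16 in mini-muscle and 4.92, 8.73 and 9.13 in regular muscle. Regular-muscle replicates 1 and 2, at 4.92 and 5.26, stood far below the other 4, which overlapped the mini-muscle arrays. The difference of 1.31 (SE 0.63) did not pass (adjusted p = 0.29), and it was 0.77 without replicate 1 and 0.84 without replicate 2.

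Myh6, Myh7 and Myh7b each hold a microRNA of muscle that is made from the host transcript. The mature forms are shown because the arrays do not measure them and only the host signals above were read. The sequences are from RefSeq (GRCm38.p6), each within its host gene and on its strand, with the seed, bases 2 to 8, in capitals.
mmu-miR-208a-3p in Myh6: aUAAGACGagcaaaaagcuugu
mmu-miR-208b-3p in Myh7: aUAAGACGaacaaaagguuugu
mmu-miR-499-5p in Myh7b: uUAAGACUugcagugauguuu
They lie at chr14:54949072-54949093 (minus strand), chr14:54975710-54975731 (minus strand) and chr2:155622893-155622913 (plus strand). The pair in Myh6 and Myh7 has the same seed, and that of the form in Myh7b differs from it in its last base alone.

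Among the developmental heavy chains, embryonic Myh3 was higher and neonatal Myh8 did not pass. Myh3 (1427115_at) had a lowest, median and highest value of 9.29, 9.79 and 10 in mini-muscle and 7.20, 8.44 and 9.01 in regular muscle. The groups did not overlap, with regular-muscle replicates 5 and 6 lowest. The difference was 1.52 (SE 0.27, 95% interval 0.95 to 2.10, 2.88-fold, adjusted p = 0.0011), and 1.33 with an offset of 64. Its regular-muscle mean, 8.24, lay among those of the genes of other organs, and its mini-muscle mean, 9.76, above all of them but Oxt. The size of this fold is therefore uncertain.

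Myh8 (1426650_at) was at 7.93, 9.45 and 10.08 in mini-muscle and 7.69, 8.78 and 10.13 in regular muscle. The groups overlapped fully. The difference was 0.42 (SE 0.37, 95% interval -0.37 to 1.20, adjusted p = 0.66), so that a rise of up to 1.20 or a fall of 0.37 lies within the interval. It was 0.70 without mini-muscle replicate 1 and 0.17 without regular-muscle replicate 4. The group means, 9.32 and 8.91, lay within the range of the genes of other organs, below Oxt and above the others.

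A difference between 2 probe sets on the same array does not depend on a scaling factor common to the array. It can depend on a scaling that varies with brightness, such as quantile normalization, under which the pairs were not tested. The change of each within-array difference was tested for all 28 pairs of the 8 measured genes, each by its brightest probe set. For Myh1 this was 1427868_x_at (difference 0.29). Pairs with 1427520_a_at of Myh1, which was nearly as bright and had a difference of 0.00, were not tested alone. The test was a two-sided exact permutation test over 924 assignments of arrays (smallest possible p = 0.0022). After adjustment over the 28 pairs 13 passed. All 7 pairs with Myh4 passed, and of the other 21 pairs 6 passed. The 7 pairs share the values of 1 Myh4 probe set, so they are not separate results. In 4 of them the partner (Myh3, Myh6, Myh7b or Myh8) read within the range of the genes of other organs, whose top is set by Oxt alone. These partners may not be above background, which leaves the pairs with Myh1, Myh2 and Myh7 as the ones between bright probe sets. Myh4 fell relative to Myh7 by 2.32 log2 units (95% interval -2.67 to -1.97). The within-array difference of this pair was -0.10 to 0.68 in mini-muscle and 2.46 to 3.09 in regular muscle (exact permutation adjusted p = 0.0067), so the groups lay far apart.

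Myh4 also fell relative to its neighbours on the chromosome, by 1.62 against Myh1 (95% interval -1.94 to -1.29) and by 1.47 against Myh2 (95% interval -1.82 to -1.13). The Myh4 minus Myh1 difference was tight in regular muscle, at 0.58 to 0.74, and wide in mini-muscle, at -1.63 to -0.63. Relative to Myh8 the fall was 1.75, with overlapping groups (exact permutation adjusted p = 0.025), and this call was lost in 3 of 12 cases without 1 array (mini-muscle replicate 2, 3 or 6, adjusted p up to 0.061). Against Myh3, Myh6 and Myh7b, which read dim, the changes were -2.85, -2.62 and -2.64, and in each of these pairs the groups did not overlap. Myh1 and Myh2 fell relative to Myh7 by 0.70 and 0.84, and both pairs lay apart between groups (exact permutation adjusted p = 0.0067). Their pairs with Myh3 and Myh6 carry the limit given above, since these 2 partners may not be above background. Myh1 and Myh2 fell relative to Myh3 by 1.24 and 1.38 (exact permutation adjusted p = 0.012 and 0.0067). Relative to Myh6 the changes were of about that size, -1.14 for Myh2 (95% interval -2.14 to -0.14) and with an interval of -1.97 to -0.03 for Myh1 (exact permutation adjusted p = 0.028 and 0.017). These calls against Myh6 were lost without mini-muscle replicate 1, 3, 4 or 5, and for Myh2 also without replicate 6 (adjusted p up to 0.07). The pair of Myh1 and Myh2 did not pass, with a change of 0.14 (95% interval -0.08 to 0.37, exact permutation adjusted p = 0.32). An average over every probe set of each gene takes in the dim probe sets of Myh1 and Myh6, and 1458368_at of Myh4 (difference -3.12). With it the pair of Myh1 and Myh2 passed at 0.92 (exact permutation adjusted p = 0.0067), and 4 of the 6 called pairs without Myh4 were lost. These were Myh1 against Myh7 (0.08, exact permutation adjusted p = 0.84), Myh1 against Myh3 (-0.46, 0.54), Myh1 against Myh6 (-0.05, 0.94) and Myh2 against Myh6 (-0.96, 0.28). All 7 pairs with Myh4 passed in that setting, and Myh4 against Myh1 grew from -1.62 to -3.29. Myh7 with Myh3 changed by -0.54 (95% interval -1.25 to 0.18, exact permutation adjusted p = 0.24).

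**Figure D4:**
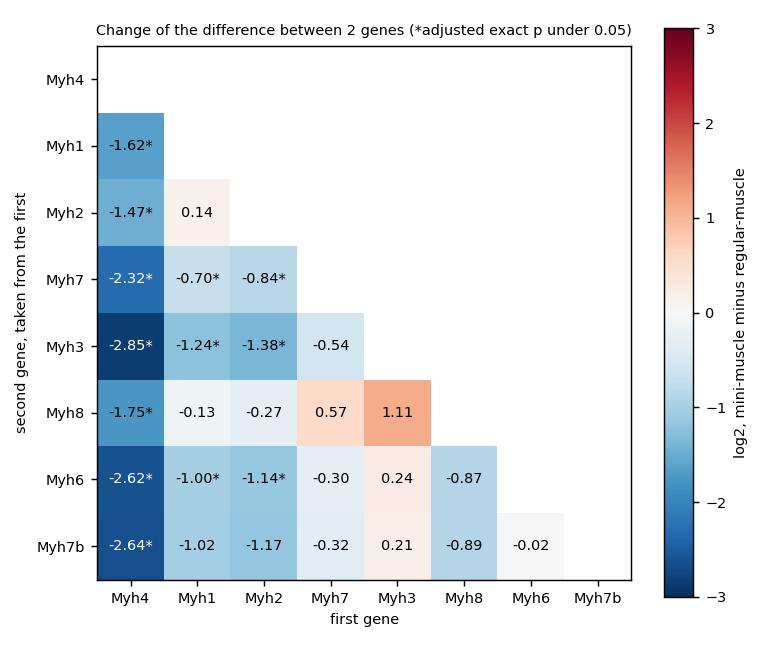
Change between groups (mini-muscle minus regular-muscle, log2) of the within-array difference between 2 heavy chain genes, first gene (x axis) minus second gene (y axis), each by its brightest probe set. Asterisks mark pairs with an exact permutation p adjusted over the 28 pairs under 0.05; the whole Myh4 column is marked, from -1.47 with Myh2 to -2.85 with Myh3.

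Within a group, Myh4 was set against each of the other 7 genes over the 6 arrays (14 relations, exact permutation of pairings). 0 passed after adjustment and 1 had an unadjusted p under 0.05. That was Myh1 on regular-muscle arrays (Pearson r = 0.93, exact p = 0.011, adjusted p = 0.16; Spearman rho = 0.77, exact p = 0.10), with r = 0.83 without the 2 arrays farthest from the median of Myh4. On mini-muscle arrays the same pair gave r = 0.49 (exact p = 0.37, adjusted p = 0.46; rho = 0.31, exact p = 0.56), and r = -0.92 without the 2 farthest arrays. Myh4 with Myh7 gave r = 0.57 on mini-muscle and 0.48 on regular-muscle arrays (adjusted exact p = 0.46 for both), and these became -0.07 and 0.21 without the 2 farthest arrays.

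**Figure D5:**
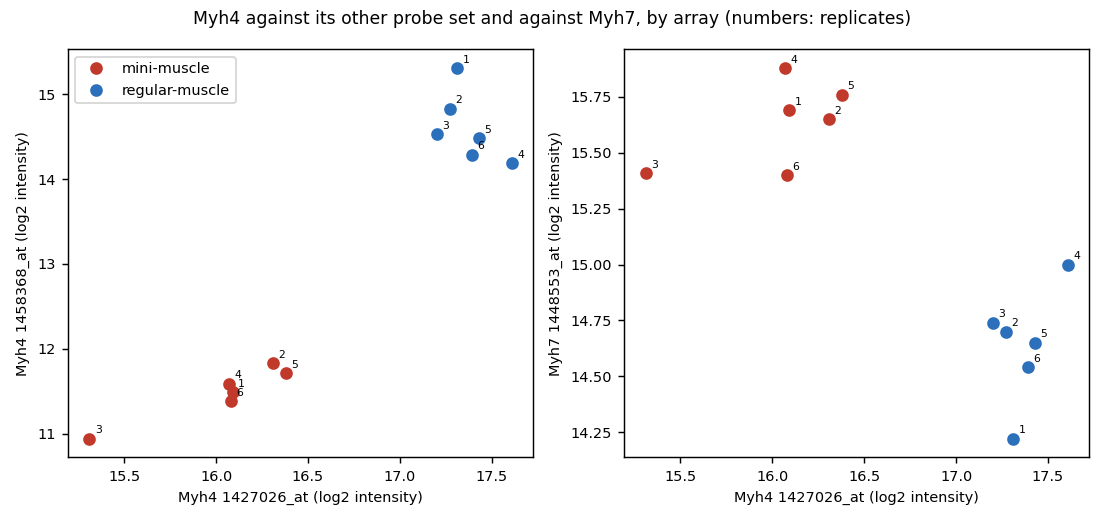
Log2 intensity of the bright Myh4 probe set (x axis) against the dimmer Myh4 probe set (left) and against Myh7 (right) on each array, with mini-muscle in red, regular-muscle in blue and replicate numbers beside the points. The groups form separate clusters in both panels, at 15.31 to 16.38 and 17.20 to 17.61 on the x axis.

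Other thick filament genes and the light chain kinases moved both ways in the deposited values. The list held 16 genes of light chains and their kinases, myosin-binding and M-band proteins, and titin. Of these, 7 were higher and 3 lower, by the brightest probe set of each gene (over all 18193 genes 5.84% were higher and 4.56% lower). The lower ones were the kinase Mylk4 (-0.78) and the fast light chains Mylpf (-0.33) and Myl1 (-0.24). With arrays centred on their medians Mylpf and Myl1 lost their calls (limma adjusted p = 0.31 and 0.52). Of these 16 genes 10 had a mean of 14 or more, where 14.6% of probe sets were higher and 22.6% lower, and the list median was 0.14, beside 0.02 over all genes. Myl4, the embryonic and atrial essential light chain, rose by 3.34 (13.16 ± 0.23 against 9.82 ± 0.48). The myosin-binding proteins Mybpc1, the slow form, and Mybph rose by 1.03 and 2.13, and Myom3, an M-band protein, by 1.48 (limma adjusted p = 1.9e-09 to 6.3e-05 for these 4).

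The other slow and fast contractile genes were split by isoform. Of 9 slow genes, which include Myl2 and Myl3 of the thick filament list, 9 were higher (median 0.70), beside 5.84% of all genes. Of the 9 genes 7 had a mean of 14 or more, where 14.6% of probe sets were higher. With arrays centred on their medians 8 were higher. Tnnt1 rose by 0.95, Tpm3 by 0.75, Casq2 by 1.38 and Tnni1 by 1.18. Of 12 fast genes, which include Myl1, Mylpf and Mybpc2 of that list, 0 were higher and 7 lower by limma (8 in either direction at an unadjusted p under 0.05; median -0.26). Myoz1 fell by 0.51, Pvalb, the calcium buffer of fast fibres, by 0.41, Actn3 by 0.36 and Casq1 by 0.41. All 12 had a mean of 14 or more, where 22.6% of probe sets were lower, and the 95 probe sets with a mean of 16 or more had a median difference of -0.11. After quantile normalization, which moved that median to 0.01, 5 of the 12 were lower (list median -0.07), with Myoz1 at -0.44, Pvalb at -0.28, Actn3 at -0.24 and Casq1 at -0.33. With arrays centred on their medians 1 was lower, Myoz1 (-0.50, adjusted p = 0.037).

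Of 9 measured genes that fold or remove myosin, 4 were higher and 2 lower (median 0.30), beside 5.84% and 4.56% of all genes. Smyd2, a lysine methyltransferase, fell by 1.69 and Trim54, a sarcomeric RING finger protein, by 0.54. Fbxo32, the atrophy ubiquitin ligase atrogin-1, rose by 1.04 and Hsp90aa1 by 0.62, both with overlapping groups. With arrays centred on their medians 2 genes of this list were higher and 2 lower. Of 24 measured regulators of heavy chain genes, 3 were higher and 4 lower (median 0.04), beside the same shares. Myog, a myogenic factor that binds E-boxes, rose by 1.99 and Mef2c, of the MEF2 family, by 0.54. Eya4, a transcriptional cofactor, fell by 0.99, and Sox6, a repressor of slow-fibre genes including Myh7 in mouse, fell from 13.06 ± 0.27 to 12.05 ± 0.40.

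Of the 4 heavy chains of smooth muscle and other cells, 2 were higher, beside 5.84% of all genes. These were Myh10 (1.03, with overlapping groups) and Myh14 (0.66), both non-muscle forms. Among markers of other cell types, most fibroblast markers differed between the groups. Of 6 fibroblast markers 4 were lower (median -0.78, beside 4.56% of all genes lower). These were Col1a1 (-1.42) and, with overlapping groups, Col1a2 (-1.04), Dcn (-0.85) and Col3a1 (-0.71). Pdgfra (-0.45, limma adjusted p = 0.24) and Lum (0.07, limma adjusted p = 0.92) did not pass. The summed log2 level of the list was 14.60 to 15.40 on mini-muscle and 15.44 to 16.09 on regular-muscle arrays. Of 4 satellite cell markers 1 was higher (beside 5.84% of all genes), Myf5 (0.96). Pax7 (-0.67, limma adjusted p = 0.62), Cdh15 (0.17) and Sdc4 (0.19) did not pass. The summed level of the satellite cell list overlapped, at 11.06 to 12.17 and 11.32 to 11.75. By limma 0 of 4 fat cell (1 at an unadjusted p under 0.05), 0 of 2 nerve sheath (0) and 0 of 5 vessel markers (2) passed. A signal alone does not show that a cell type was present, since genes of other organs also read 5.77 to 10.45 here. The part of other cells in the heavy chain differences was not tested.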

How the data were processed

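Total RNA (5 µg a sample) of gastrocnemius was hybridised to Affymetrix arrays. The authors deposited 1 intensity per probe set and array on a linear scale, for which the submitters' processing notes name MAS5. Its version and settings are not stated, and detection calls were not used here. Gene names are those of the platform annotation, matched by gene identifier to RefSeq. The 64 Affymetrix control probe sets were left out.

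The intensities were taken to log2 with no offset and no further normalization. Groups were compared with limma 3.58.1 (R 4.3.3; lmFit and eBayes with intensity trend, two-sided, n = 6 arrays per group) over 45037 probe sets, with Benjamini-Hochberg adjustment over all of them, and each difference is the mini-muscle mean less the regular-muscle mean. No filter removed dim members, and other normalizations, an offset, filters and leaving out each array were tried. Pairs and relations used exact permutation tests (Python 3.11.15). The number of arrays limits the precision. Named list genes are up to 4 with the smallest adjusted p. Others (Nppa, Myl7, Oxt, Mylk4, Mylpf, Myl1, Pdgfra and Lum) were chosen after their values were seen. So were the genes Myhas and 2310065F04Rik, and the shared Myh7 and Myh6 probe sets. The members and lists were chosen with earlier results of these data known. Replicate numbers only name the arrays.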

Additional observations from a re-analysis of the deposited data

Results flagged for a closer look

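In 5 of 24 cases (12 probe sets in each of 2 groups) 1 array stood apart from the other 5 of its group by more than Dixon's critical ratio for 6 values, where chance gives about 1 in 20. All 5 were mini-muscle arrays. Replicate 3 was low for Myh4 at 1427026_at, at 15.31 against 16.07 to 16.38 on the others, and without it the Myh4 difference was -1.18. Replicate 2 was low for Myh3, at 9.29 against 9.74 to 10, and for Myh7b, at 8.45 against 8.96 to 9.16. Replicate 1 was low for Myh8, at 7.93 against 9.33 to 10.08, and for 1417729_at of Myh6, at 1.59 against 5.20 to 6.20. The last 4 are dim probe sets. The cause was not tested.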

How the results depend on the processing

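Myh4 (both probe sets), Myh7, Myh3 and 1452465_at of Myh1 kept their direction and call under every alternative in which they were tested (17 to 19 each), at -1.40 to -1.18 and -3.20 to -2.97, 0.90 to 1.06, 1.32 to 1.68, and 1.78 to 3.27. The calls of 1427868_x_at of Myh1 and 1448826_at of Myh6 were lost in 8 and 10 of 19 alternatives. The 5 members called higher became 3 with arrays centred on their medians and 3 without the intensity trend, and 3 to 5 without 1 array (3 without mini-muscle replicate 4, 5 or 6 or regular-muscle replicate 3); the 2 called lower were 2 whichever array was left out and 1 with 1 probe set a gene, since that setting keeps 1 Myh4 probe set. Of all probe sets 3208 passed, 2085 with centring on medians, 1424 without the trend and 2704 to 3147 without 1 array. Of the pairs 13 passed, 10 to 13 without 1 array, and 10 with the average over the probe sets of a gene, of which 9 were among the 13. For the gene lists other scalings were added after the data were seen: with centring on medians 1 of the fast genes was lower in place of 7, and 2 of the genes that fold or remove myosin were higher in place of 4, and 1 of the thick filament genes and 2 of the regulators were lower in place of 3 and 4. Quantile normalization called 2 thick filament genes lower, and 3 of the genes that define muscle higher in place of 1. For the 95 probe sets with a mean of 16 or more the deposited values gave a median difference of -0.11 and quantile normalization one of 0.01. That normalization gave Myh2 0.25 (adjusted p = 0.082), the bright Myh4 probe set -1.24 and 1427868_x_at of Myh1 0.42 (adjusted p = 8.8e-05). No paired analysis was possible because the labels give no numbers shared between groups. For dim probe sets the size of a difference is limited by signal over background.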

Other observations

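The 2 Myh4 probe sets were set against each other within each group, a relation added after the values were seen. Over the 6 mini-muscle arrays Pearson r was 0.95 (exact p = 0.015, adjusted over 2 relations 0.031; Spearman rho = 0.77, exact p = 0.10), and 0.87 without the 2 arrays farthest from the median. Over the 6 regular-muscle arrays it was -0.56 (exact p = 0.25; rho = -0.71, exact p = 0.14). The difference between these correlations was not tested.

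Other genes were ranked by how closely their deviations from the group means over the 12 arrays followed those of a heavy chain gene, among 9091 genes at or above the median brightness. These are the extremes of many genes on few arrays, given as a description. For Myh7 the most alike were Tpm3, the slow tropomyosin (r = 0.93), Wnt9a (0.92), Tnnt1, slow troponin T (0.91), Slc20a2, a phosphate transporter (0.89), and Pacsin3 (0.88), and the least alike Lrrc3b (-0.95), Pik3cd (-0.89) and Inpp5j (-0.87). The bright Myh4 probe set read 15.31 on mini-muscle replicate 3, against 16.07 to 16.38 on the other arrays of its group. The Myh4 ranking therefore leans on that array. For Myh4 the most alike were Shh (0.94), Trdn, triadin of the calcium release complex (0.91), Sp6 (0.91), Atg16l1 (0.90) and Nfic (0.90), and the least alike Nkiras1 (-0.92), Chchd3 (-0.91) and Naa20 (-0.90). For Myh3 they were Rwdd4a (0.90), Map3k5 (0.86), Zfpl1 (0.86), Rad17 (0.86) and Trp63 (0.85), and the least alike Exoc7 (-0.87), Ahcy (-0.86) and Gatad2b (-0.84).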
